A study of Sus scrofa with 10 samples.

Results

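Solute carriers are membrane proteins that move sugars, amino acids, ions, metals, nucleotides and vitamins across the cell surface or organelle membranes, and their gene symbols begin with SLC. Their members were taken as all genes on the array whose probe sets carry exactly 1 symbol that starts with SLC and a digit, which gave 120 genes out of 6765 genes with 1 symbol. Each gene was read by its brightest probe set, meaning the highest mean of the 10 arrays. The 120 genes were read by 176 probe sets, and 81 genes had a single probe set.

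RNA of aortic valve leaflets from female swine on standard chow was measured on the Affymetrix GeneChip Porcine Genome array, with 4 adult Rapacz Familial Hypercholesterolemic (RFH), 3 juvenile RFH and 3 juvenile wild-type (WT) arrays. RFH swine inherit high cholesterol in the blood, and the WT arrays are labelled as Rapacz Wisconsin Miniature Swine, wild type (RFH -/-). Adults were 2 years and juveniles 3 months old, and leaflets of all groups were stored in RNAlater in the hour after death. Adult WT valves were not analysed here, so age and the course of the disease cannot be told apart in the adult comparison, and breed label and genotype cannot be told apart in the juvenile one.

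Cells take up glucose by facilitated diffusion through the SLC2 family and by sodium-driven transport through SLC5. Amino acid carriers of the SLC1, SLC6, SLC7 and SLC38 families mostly use the sodium gradient or exchange one amino acid for another. SLC25 carriers lie mainly in the inner mitochondrial membrane, SLC30 and SLC39 carriers move zinc, and sodium-phosphate cotransport runs through SLC20 and SLC34. Phosphate uptake is studied in valves because it feeds mineral deposition, and glucose and amino acid carriers are studied in macrophages and activated stromal cells.

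By class, the 120 genes held 13 sugar carriers, 20 amino acid and peptide carriers, 11 carriers of sodium, chloride, bicarbonate, calcium or protons, 13 metal ion carriers, 2 phosphate carriers and 21 mitochondrial carriers. Another 12 carried nucleotide sugars or sugar phosphates, 2 carried monocarboxylates, 1 was a neurotransmitter carrier and 22 carried lipids, vitamins, nucleosides, organic ions or other solutes. The remaining 3, SLC2A4RG, SLC9A3R1 and SLC9A3R2, carry an SLC symbol but encode regulators or scaffolds, not carriers. The mitochondrial class is the whole SLC25 family, so it also holds the peroxisomal carrier SLC25A17. SLC20A1 and SLC20A2, the phosphate carriers most often studied in vascular mineralisation, are not among the 120 genes and were not analysed here.

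Deposited values are on a log2 scale, 1 per probe set and array, and the median of all probe sets was 6.996. Levels of the 120 genes, as means over the 10 arrays, ran from 2.95 to 12.71 with a median of 7.48, against a median of 8.51 for all 6765 genes. SLC genes were therefore dimmer than the array's named genes, and 49 of the 120 lay below the median of all probe sets. The median SD of an SLC gene was 0.19 in adult RFH arrays, 0.11 in juvenile RFH arrays and 0.083 in WT arrays. Brightness also depends on the probe, so levels of different genes are not ranked here.

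The labelled tissue was checked against marker lists. Of 7 markers of valve interstitial and matrix cells, VIM, DCN and LUM averaged 13.67 or more in each group. POSTN and BGN averaged 12.76 and 12.85 in adult RFH arrays, COL1A2 8.58 and COL3A1 6.66, and POSTN and COL3A1 fell in adults, by 1.06 and 0.68. One array stood apart: cardiac muscle markers had a list mean of 9.78 in juvenile RFH replicate 2, beside 4.91 and 5.46 in replicates 1 and 3 of that group, 5.05 to 5.35 in adult RFH and 4.86 to 4.89 in juvenile WT arrays. The 12 porcine poly-A control probe sets, which read RNA spiked in before labelling, lay at 7.47 to 7.89 in adult RFH arrays, at 6.83 to 6.85 in juvenile RFH arrays and at 7.01 to 7.12 in WT arrays. Actin and GAPDH controls were on average brighter at the 3' than at the 5' end in every array. This difference was 2.14 to 3.07 in adult RFH arrays, lowest in replicate 1 and highest in replicate 3. In juvenile RFH arrays it was 2.61 to 2.77 and in WT arrays 2.62 to 2.74. No batch is given in the labels, and the part of the poly-A and 3' differences in the values below was not tested.

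In adult against juvenile RFH leaflets, 12 of the 120 SLC genes rose and 5 fell. That is 14.2% of the members, beside 19.3% of all 6765 genes called in this comparison (11.4% of all genes rose and 7.85% fell). A gene is called when limma's adjusted p, taken over all 23999 probe sets, is under 0.05. The share of SLC genes was not above the background, and brightness moved with it: 13 of the 71 members at or above the median of all probe sets were called (18.3%, beside 22.7% of all genes that bright), and 4 of the 49 dimmer members (8.16%, beside 10% of the dimmer genes). At an unadjusted p under 0.05 there were 40 SLC genes, beside 34.5% of all genes. The median change was 0.00 over the SLC genes and 0.02 over all genes, with 59 of the 120 changes positive. Groups did not overlap in 29 SLC genes, 24.2%, beside 29.9% of all genes.

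The number of calls depended on single arrays, over all genes as well as over SLC genes. It was 6 without juvenile RFH replicate 1, with 5 rises and 1 fall, where 10.9% of all genes were called. It was 11 without juvenile RFH replicate 3, with 6 rises and 5 falls, beside 11.1% of all genes. Without adult RFH replicate 3, 9 SLC genes fell in place of 5 and 25 were called, beside 24.1% of all genes. Without juvenile RFH replicate 2, which held the cardiac muscle transcripts, 9 rose and 6 fell, beside 13.5% of all genes called. A fit restricted to the RFH arrays gave 7 rises and 2 falls, beside 11.2% of all genes called. Of the 17 called genes, 6 stayed past the threshold whichever of the 10 arrays was left out: SLC2A3, SLC11A1, SLC25A33, SLC7A1, SLC6A8 and SLC39A7. Of the 17, 12 changed by less than 1 on the log2 scale and 5 by 2-fold or more. Those 5 were 4.17% of all SLC genes, beside 4.69% of all genes that were called with a change of that size.

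**Figure D1:**
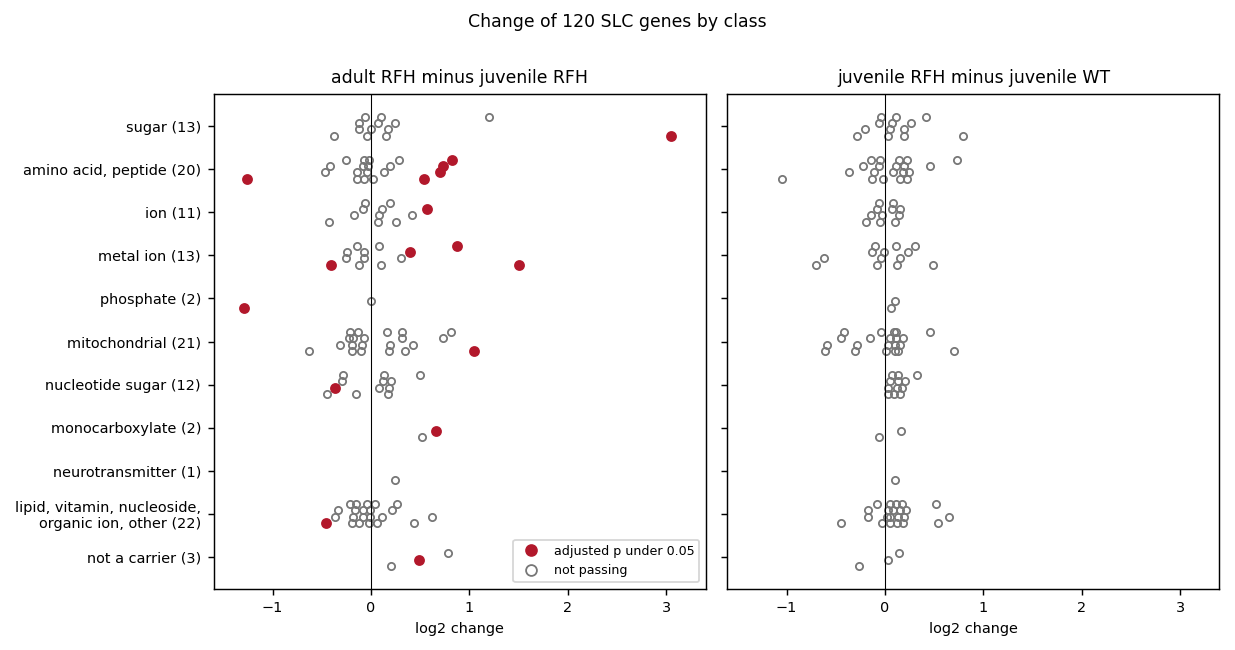
Change of each of the 120 SLC genes on the log2 scale (horizontal axis) by class (vertical axis, number of genes in parentheses), adult RFH minus juvenile RFH on the left and juvenile RFH minus juvenile WT on the right. Filled points passed limma's adjusted p of 0.05, 17 on the left and 0 on the right, and SLC2A3 among the sugar carriers lies far right of all others at 3.05.

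Among the 13 sugar carriers 1 rose and none fell, 7.69% beside 19.3% of all genes called. SLC2A3, which encodes GLUT3, the high-affinity glucose carrier of neurons and of activated leukocytes, stood at 11.15, 11.70, 11.44 and 11.64 in adult RFH arrays, against 8.40, 8.39 and 8.50 in juvenile RFH arrays and 8.09, 7.97 and 7.98 in juvenile WT arrays. Every adult array lay at least 2.65 above every juvenile RFH array. The change of 3.05 ± 0.13 (SE, limma adjusted p = 5.36e-07) is an 8.3-fold rise, and it stayed between 2.98 and 3.16 whichever array was left out. It was the largest change of the 120 members in either direction.

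SLC2A1, which encodes GLUT1, the widespread basal glucose carrier, stood at 7.41, 7.52, 7.32 and 7.53 in adult RFH arrays and at 7.45, 7.52 and 7.56 in juvenile RFH arrays. Its groups overlapped, and its change of -0.07 had a 95% interval of -0.26 to 0.13 (limma). SLC2A3 minus SLC2A1, taken within each array, was 3.74 to 4.18 in adult RFH arrays and 0.86 to 0.95 in juvenile RFH arrays. The changes of the 2 genes thus differed by 3.12 (two-sided exact permutation p = 0.0286, the lowest possible with 4 and 3 arrays; 0.187 after Benjamini-Hochberg adjustment over 321 pairs within SLC families, where no pair could pass). This pair and those below hold genes picked by their change in these same arrays, so these p-values are no separate support.

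SLC2A4, the insulin-responsive GLUT4 of muscle and fat, had a change of 0.00 with a limma 95% interval of -0.19 to 0.20. SLC2A5, the fructose carrier GLUT5, stood at 6.90, 8.39, 6.83 and 5.52 in adult RFH arrays, against 5.34, 6.14 and 5.65 in juvenile RFH arrays and 4.96, 4.75 and 5.02 in juvenile WT arrays. Adult arrays of SLC2A5 spread over nearly 3 log2 units and overlapped the juvenile RFH arrays, and its change of 1.20 ± 0.50 did not pass (SE, limma adjusted p = 0.131). The other sugar carriers had changes between -0.38 for the intestinal sodium-glucose carrier SLC5A1 and 0.24 for SLC45A3.

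Of the 20 amino acid and peptide carriers 4 rose and 1 fell, 25% beside the 19.3% of all genes. SLC7A1, the main cell-surface carrier of arginine and lysine, stood at 9.84, 10.13, 9.60 and 9.72 in adult RFH arrays, against 9.15, 9.05 and 9.08 in juvenile RFH arrays and 8.91, 8.93 and 8.83 in juvenile WT arrays. The adult arrays were all higher, by 0.73 ± 0.12 (SE, limma adjusted p = 0.00295). SLC6A8, the creatine carrier, stood at 7.68, 7.98, 7.86 and 7.53 in adult RFH arrays and at 7.28, 7.09 and 7.30 in juvenile RFH arrays, a rise of 0.54 ± 0.12 (limma adjusted p = 0.0125).

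SLC7A7, whose product exports cationic amino acids in exchange for neutral ones and is mutated in lysinuric protein intolerance, stood at 7.30, 8.01, 7.10 and 6.95 in adult RFH arrays, against 6.46, 6.70 and 6.76 in juvenile RFH and 6.13, 6.18 and 6.24 in juvenile WT arrays. The 3 groups did not overlap. Its rise of 0.70 ± 0.21 (limma adjusted p = 0.0458) was lost in 7 of the 10 fits without 1 array, all but those without adult RFH replicate 2, 3 or 4, and its other probe set had a change of -0.01. The heteromer subunit SLC3A2, which brings several SLC7 carriers to the surface, had a change of 0.19 ± 0.21 (limma adjusted p = 0.576).

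The 2 called glutamate carriers went in opposite directions. SLC1A1, a neuronal and epithelial carrier of glutamate and cysteine, stood at 7.01, 6.03, 7.72 and 7.01 in adult RFH arrays, against 8.35, 7.85 and 8.42 in juvenile RFH arrays, and it fell by 1.26 ± 0.31 (limma adjusted p = 0.0208). SLC1A3, the glial carrier GLAST, stood at 5.95, 7.04, 6.60 and 5.84 in adult RFH arrays, against 5.50, 5.37 and 5.73 in juvenile RFH arrays, and it rose by 0.83 ± 0.25 (limma adjusted p = 0.0472). In neither gene did the adult and juvenile RFH values overlap. The other 4 probe sets of SLC1A1, all dimmer, had changes of -0.09 to -0.29, and the mean of its probe sets fell by 0.39 (limma adjusted p = 0.0275).

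The change of SLC1A3 exceeded that of SLC1A1 by 2.09. Both genes had been called without overlap and in opposite directions, so their difference within arrays had to separate the groups. Its two-sided exact permutation p of 0.0286, the smallest possible (0.187 adjusted over the 321 pairs), was thus fixed and adds nothing to the calls. The call of SLC1A1 was lost without juvenile RFH replicate 1 or 3 (limma adjusted p = 0.0787 and 0.0825). The call of SLC1A3 was lost in 8 of the 10 fits without 1 array, all but those without adult RFH replicate 1 or 4, with a change of 0.60 without adult RFH replicate 2. SLC1A3 lay below the median of all probe sets in 9 of the 10 arrays, so its fold depends on the background that the authors' processing left. SLC1A5, the glutamine carrier ASCT2, stood at 10.74, 10.96, 11.07 and 11.01 in adult RFH arrays and at 10.62, 10.67 and 10.69 in juvenile RFH arrays. These groups did not overlap, and the change of 0.29 ± 0.09 did not pass (limma adjusted p = 0.0619).

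Of the 13 metal ion carriers 3 rose and 1 fell, 30.8% beside 19.3%. SLC11A1, which encodes NRAMP1, the pump that draws iron and manganese out of the macrophage phagosome, stood at 7.88, 8.94, 7.53 and 7.46 in adult RFH arrays, against 6.56, 6.38 and 6.42 in juvenile RFH arrays and 5.91, 6.07 and 5.90 in juvenile WT arrays. Its rise of 1.50 ± 0.29 (limma adjusted p = 0.00699) is 2.83-fold and was 1.17 without adult RFH replicate 2, the highest array. SLC11A2, the widespread iron carrier DMT1, had a change of 0.30 ± 0.11 (limma adjusted p = 0.0819), and the changes of both genes differed by 1.20 (two-sided exact permutation p = 0.0571; 0.204 adjusted over the 321 pairs).

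SLC31A2, a relative of the copper carrier gene SLC31A1, stood at 8.30, 8.77, 7.41 and 7.91 in adult RFH arrays, against 6.99, 7.44 and 7.25 in juvenile RFH and 8.02, 7.71 and 8.06 in juvenile WT arrays. Adult replicate 3 overlapped the juvenile RFH arrays, and the juvenile RFH arrays lay below the WT arrays. The rise of 0.87 ± 0.27 (limma adjusted p = 0.0472) was lost in 9 of the 10 fits without 1 array, and held (0.00659) without adult RFH replicate 3. Its dimmer probe set had a change of 0.49. SLC31A1 itself had a change of -0.12 ± 0.13.

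SLC41A1, a magnesium carrier, rose by 0.40 ± 0.12 (limma adjusted p = 0.0396), and 7 of the 10 fits without 1 array lost that call, all but those without adult RFH replicate 1 or 4 or juvenile RFH replicate 2. SLC39A7, which releases zinc from the endoplasmic reticulum and Golgi into the cytosol, stood at 8.91, 9.09, 9.15 and 9.06 in adult RFH arrays, against 9.48, 9.49 and 9.40 in juvenile RFH arrays and 9.19, 9.09 and 9.18 in juvenile WT arrays. It fell by 0.40 ± 0.08 (limma adjusted p = 0.0101), and the adult arrays lay near the WT arrays, below the juvenile RFH arrays. SLC39A14, a zinc and iron carrier induced in inflammation in the liver, had a change of -0.24 ± 0.24 (limma adjusted p = 0.53).

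Of the 2 phosphate carriers SLC34A2 fell. This sodium-phosphate cotransporter of intestine and lung stood at 6.83, 6.58, 7.92 and 7.30 in adult RFH arrays, against 8.63, 8.72 and 8.02 in juvenile RFH arrays and 8.89, 8.04 and 8.14 in juvenile WT arrays. Adult replicate 3, the highest adult array, was 0.09 below the lowest juvenile RFH array. The fall of 1.29 ± 0.32 (limma adjusted p = 0.0204) was lost without juvenile RFH replicate 1 (0.0792) or 2 (0.0697). SLC17A1, a phosphate and urate carrier known from kidney and liver, averaged 4.23 in adult RFH and 4.23 in juvenile RFH arrays, far under the median of all probe sets.

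Among the 21 SLC25 genes, classed here as mitochondrial carriers, 1 rose and none fell, 4.76% beside 19.3%. SLC25A33, a pyrimidine nucleotide carrier, stood at 7.95, 8.51, 8.17 and 7.83 in adult RFH arrays, against 7.06, 7.10 and 7.06 in juvenile RFH arrays and 7.48, 7.34 and 7.25 in juvenile WT arrays. All adult arrays were higher, by 1.04 ± 0.15 (limma adjusted p = 0.00134), and the change was 0.91 to 1.14 whichever array was left out. Its second, dimmer probe set had a change of -0.17. SLC25A36, another pyrimidine nucleotide carrier, had a change of 0.17 ± 0.11, and both changes differed by 0.88 (two-sided exact permutation p = 0.0286; 0.187 adjusted over the 321 pairs).

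The 3 ADP/ATP carriers, which exchange cytosolic ADP for ATP made in the matrix, did not pass. SLC25A5, the isoform of dividing cells, stood at 10.87, 11.37, 10.21 and 10.12 in adult RFH arrays, against 9.88, 10.06 and 9.81 in juvenile RFH and 9.25, 9.11 and 9.29 in juvenile WT arrays. The 3 groups did not overlap, and the adult change of 0.73 ± 0.25 had a limma adjusted p of 0.0764. It was 0.0363 with adult replicate 3 left out and 0.0276 with adult replicate 4 left out. In every other fit without 1 array it was higher than with all arrays, at 0.106 to 0.196. Without adult replicate 2 the change was 0.49. SLC25A6 stood at 12.49 to 12.75 in adult RFH and 12.73 to 12.89 in juvenile RFH arrays, a change of -0.19 ± 0.09.

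SLC25A4, the isoform of heart and skeletal muscle, stood at 9.82 to 10.08 in adult RFH arrays and at 9.47, 10.13 and 9.63 in juvenile RFH arrays. The high value was juvenile RFH replicate 2, the array with the cardiac muscle transcripts, and the part of those transcripts in it was not tested. SLC25A3, the mitochondrial phosphate carrier, stood at 11.79 to 11.99 in adult RFH and 11.96 to 12.05 in juvenile RFH arrays, a change of -0.13 with a limma 95% interval of -0.31 to 0.05. SLC25A6 and SLC25A3, the brightest probe sets of this class, thus had changes under 0.2 in size, and SLC25A5 a larger one that did not pass.

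Of the 11 ion carriers 1 rose, 9.09% beside 19.3%. SLC8B1, the exchanger that extrudes calcium from mitochondria against sodium, stood at 7.82, 8.14, 7.68 and 7.53 in adult RFH arrays and at 7.21, 7.16 and 7.29 in juvenile RFH arrays. It rose by 0.57 ± 0.13 (limma adjusted p = 0.0145), and that call was lost without juvenile RFH replicate 1 (0.0525). The plasma membrane exchanger SLC8A1 lay near the low end of the scale, at 3.82 to 4.84 in adult RFH and 3.88 to 4.01 in juvenile RFH arrays. The bicarbonate carriers SLC4A2 and SLC4A4 had changes of 0.11 ± 0.08 and 0.25 ± 0.14, neither of which passed.

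The remaining called members were spread over the other classes. SLC16A13, a monocarboxylate carrier, rose by 0.66 ± 0.16 (limma adjusted p = 0.0177), at 7.62 to 8.32 in adult RFH and 7.19 to 7.46 in juvenile RFH arrays, but did not pass when juvenile RFH replicate 1 or 3 was left out (0.0723 and 0.0676). SLC16A3, the lactate exporter MCT4, stood at 5.06 to 5.94 in adult RFH and 4.77 to 5.08 in juvenile RFH arrays, and its change of 0.52 ± 0.18 did not pass (limma adjusted p = 0.0721). SLC37A4, which brings glucose 6-phosphate into the endoplasmic reticulum, fell by 0.36 ± 0.10 (limma adjusted p = 0.0271), a call lost without adult RFH replicate 1 or 2 or juvenile RFH replicate 1 or 2 (0.0559 to 0.101). SLC46A3, a lysosomal membrane carrier, had a change of -0.46 ± 0.14 with an adjusted p of 0.0498, lost in 9 of the 10 fits and held (0.0201) without juvenile RFH replicate 2. Its change was -0.27 without juvenile RFH replicate 3, and its other probe set had a change of 0.20. The scaffold gene SLC9A3R1 rose by 0.49 ± 0.12 (limma adjusted p = 0.0215), and it too missed the threshold when juvenile RFH replicate 1 or 3 was left out (0.0606 and 0.0864).

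None of the 12 nucleotide sugar and sugar phosphate carriers rose, and SLC37A4 was the 1 that fell, 8.33% beside 19.3%. Their changes lay between -0.44 for SLC35F5 and 0.50 for SLC35A3. The 22 carriers of lipids, vitamins, nucleosides, organic ions and other solutes held 1 fall, SLC46A3, and no rise, 4.55% beside 19.3%. In this class SLC22A5, the carnitine carrier OCTN2, had an adult change of 0.44 ± 0.17 and the nucleoside carrier SLC29A1 one of 0.21 ± 0.10. Of the 39 SLC genes with several probe sets, 7 were called by the brightest one, and in none of the 7 was another probe set called in the same direction. No gene had calls in opposite directions. With all probe sets of a gene averaged, SLC7A7, SLC37A4, SLC41A1 and SLC46A3 no longer passed.

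**Figure D2:**
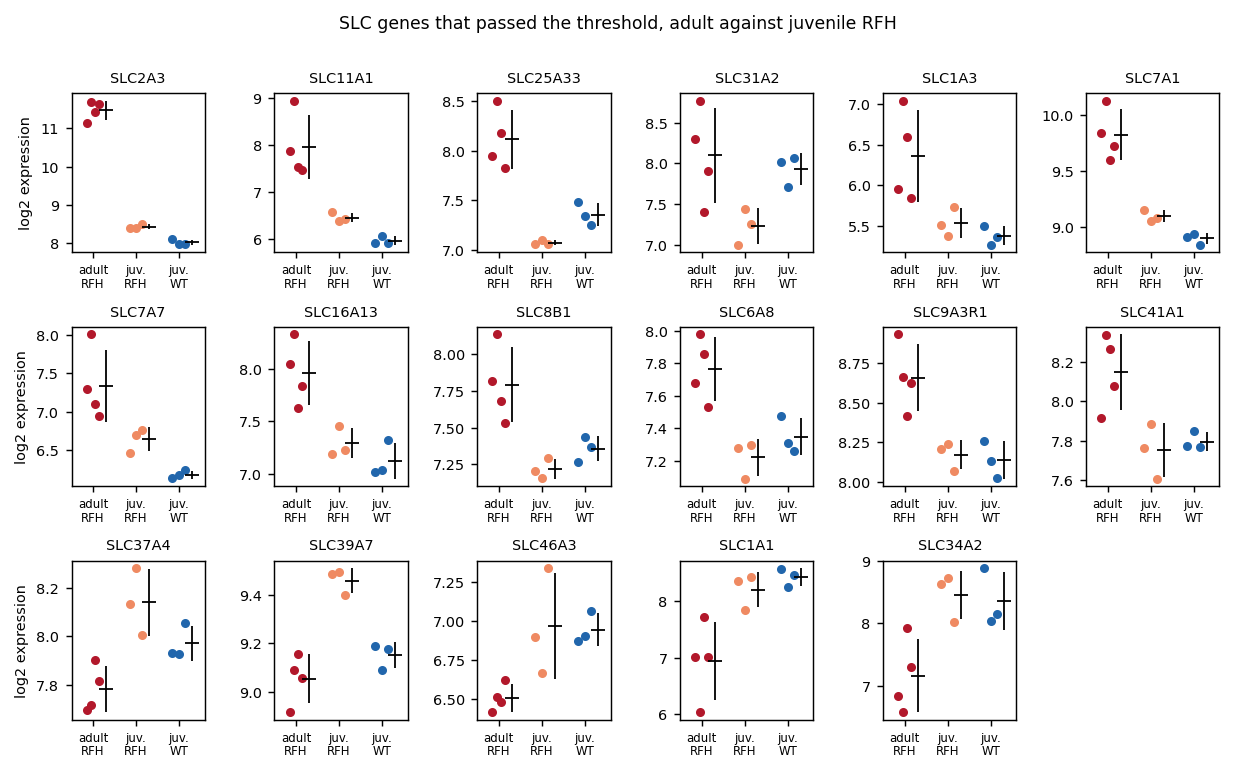
Log2 expression (vertical axis, own scale in each panel) of the 17 SLC genes called in adult against juvenile RFH leaflets, in order of their change. Each point is 1 array, and the black line and bar give the group mean and SD (n = 4 adult RFH, 3 juvenile RFH, 3 juvenile WT). In 16 of the 17 genes the adult arrays do not overlap the juvenile RFH arrays, and SLC31A2 is the exception.

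Markers of several cell types differed between adult and juvenile RFH arrays. The macrophage list, with 7 of 9 markers measured, had means of 11.33, 11.56, 10.80 and 10.73 in adult RFH replicates 1 to 4, against 10.23 to 10.26 in juvenile RFH and 9.86 to 9.98 in juvenile WT arrays. Of the 7 markers 4 rose and none fell in adults, where 11.4% of all genes rose and 7.85% fell. Endothelial list means were 10.11, 10.10, 9.29 and 9.97 in adult RFH replicates 1 to 4, so replicate 4 lay close to replicates 1 and 2. Adult replicates 1 and 2 had the highest list means of macrophage, adipocyte and endothelial markers. They were also the highest adult arrays of 7 of the 12 risen SLC genes, SLC11A1, SLC7A7, SLC7A1, SLC31A2, SLC16A13, SLC8B1 and SLC9A3R1, and of SLC25A5, which was not called. That is 58.3% of the risen SLC genes, beside 44.1% of all genes that rose.

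SLC2A3, SLC1A3, SLC6A8, SLC25A33 and SLC41A1, the other risen SLC genes, did not have replicates 1 and 2 as their highest adult arrays. The lowest adult array of SLC2A3 was replicate 1. Adipocyte markers, 4 of 6 measured, had list means of 6.09 to 7.15 in adult RFH and 5.29 to 5.38 in juvenile RFH arrays. FABP4 and LPL rose, and ADIPOQ, which defines fat cells, averaged 4.20 in adult RFH and 4.08 in juvenile RFH arrays. LEP had a change of -0.13 that did not pass. Endothelial markers, all 7 measured, had list means of 9.29 to 10.11 in adult RFH and 9.11 to 9.41 in juvenile RFH arrays, and THBD and VWF rose by 1.58 and 1.48 while ERG fell by 0.43. Erythroid markers, 3 of 5 measured, had list means of 6.28 to 7.24 in adult RFH and 7.56 to 8.48 in juvenile RFH arrays, and AHSP and ALAS2 fell by 1.70 and 1.86. Of 4 measured smooth muscle and myofibroblast markers, with list means of 9.39 to 10.33 in adult RFH and 10.05 to 10.46 in juvenile RFH arrays, ACTA2 fell by 1.00. The part of these lists in the SLC changes was not tested, and in RNA of whole leaflets more cells of a type and more RNA per cell cannot be told apart.

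**Figure D3:**
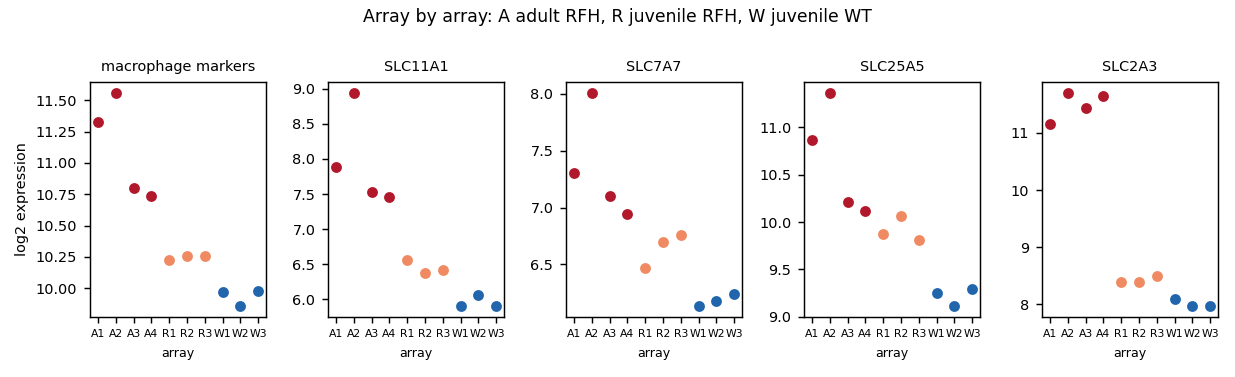
Log2 expression (vertical axis, own scale in each panel) in each of the 10 arrays (horizontal axis) of the mean of 7 macrophage markers and of SLC11A1, SLC7A7, SLC25A5 and SLC2A3. Adult RFH replicates 1 and 2 are the highest arrays of the first 4 panels, and all 4 adult arrays of SLC2A3 lie between 11.15 and 11.70. The SLC genes shown were picked with their values known, so the shared order of the panels is no separate support. Of the 12 risen SLC genes 7 had that order, beside 44.1% of all genes that rose. SLC25A5 was not called.

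Genes that power, partner with or report on the carriers were read beside them, from a list of 41 of which 26 were measured. In adult against juvenile RFH leaflets 8 rose and 1 fell, 34.6% beside 19.3% of all genes. The list is bright, with 22 of the 26 above the median of all probe sets, and 22.7% of all genes at or above that median were called. The median change was 0.17 over the list and 0.02 over all genes. TXNIP, the arrestin that curbs glucose uptake through GLUT1, fell by 0.50 ± 0.11 (limma adjusted p = 0.0117). LDHA, which makes lactate, rose by 0.69 ± 0.18 (limma adjusted p = 0.0251). The hypoxia factor genes EPAS1 and HIF1A rose by 1.25 ± 0.20 and 0.37 ± 0.11 (limma adjusted p = 0.00306 and 0.0377).

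ATF4, the transcription factor that switches on amino acid carriers under amino acid shortage, rose by 0.44 ± 0.11 (limma adjusted p = 0.0183), and its target ASNS had a change of 0.24 ± 0.22 that did not pass. Among genes of metal handling, the ferritin light chain gene FTL rose by 0.38 ± 0.08 (limma adjusted p = 0.0105). HMOX1, which frees iron from heme, rose by 1.14 ± 0.34 (limma adjusted p = 0.0453). The metallothionein gene MT1A had group means of 10.30 in adult RFH arrays, 8.48 in juvenile RFH arrays and 6.86 in WT arrays, and it rose in adults by 1.82 ± 0.56 (limma adjusted p = 0.0489), although adult RFH replicate 4, at 8.40, lay inside the juvenile RFH range.

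VDAC2, a pore of the outer mitochondrial membrane, rose by 0.73 ± 0.21 (limma adjusted p = 0.0395). The sodium pump subunits ATP1B1 and ATP1B3, whose enzyme sets the sodium gradient, had changes of -0.27 ± 0.13 and -0.13 ± 0.11. The mitochondrial pyruvate carrier genes MPC1 and MPC2 had changes of 0.10 ± 0.11 and 0.17 ± 0.16, and the lactate carrier chaperone gene BSG one of 0.07 ± 0.08. None of these 5 passed. The number of risen partner genes was 2 to 4 without adult RFH replicate 1 or 2 or without any 1 juvenile array, and 2 in a fit restricted to the RFH arrays, fits in which 6.21% to 10% of all genes rose.

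Between juvenile RFH and juvenile WT leaflets, 0 of the 120 SLC genes passed limma's adjusted p of 0.05, beside 0.133% of all genes (0.0887% higher and 0.0443% lower in juvenile RFH). Without adjustment, 18 SLC genes had a p under 0.05, 15%, beside 15.1% of all genes. The groups did not overlap in 43 members, 35.8%, the same share as of all genes. The median change was 0.08 over the SLC genes, with 79 of 120 positive, and 0.07 over all genes. SLC genes as a group were thus at the background in this comparison. With only the juvenile arrays in the fit 9 members passed, 6 up and 3 down, 7.5% beside 4.82% of all genes. With array weights 7 passed, 5 up and 2 down, 5.83% beside 5.87% of all genes, and 5 members were in both sets.

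Those 5 were SLC38A1, SLC25A5, SLC22A5 and SLC2A3, higher in juvenile RFH, and SLC1A2, lower. SLC38A1, a sodium-coupled glutamine carrier, stood at 10.68, 10.67 and 10.51 in juvenile RFH arrays and at 9.87, 9.94 and 9.87 in juvenile WT arrays. The difference was 0.73 (limma adjusted p = 0.192 with all arrays, 0.0136 with only the juvenile arrays), and its second brightest probe set gave 0.75. SLC22A5 stood at 6.73, 6.73 and 7.05 in juvenile RFH arrays and at 6.09, 6.19 and 6.26 in juvenile WT arrays, a difference of 0.65 (limma adjusted p = 0.181 and 0.0282).

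SLC1A2, the astrocyte glutamate carrier GLT-1, stood at 4.77, 4.66 and 5.13 in juvenile RFH arrays and at 5.83, 6.26 and 5.61 in juvenile WT arrays. Its difference of -1.05 was the largest of the 120 in this comparison, at levels under the median of all probe sets (limma adjusted p = 0.114 and 0.0313). In SLC25A5 and SLC2A3, whose values are given above, juvenile RFH arrays were 0.70 and 0.41 above WT (limma adjusted p = 0.32 and 0.244 with all arrays, 0.0195 and 0.0381 with only the juvenile arrays). The SLC2A3 difference between adult and juvenile RFH, 3.05, was thus the larger of its steps, and the juvenile RFH arrays are shared by both.

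Another 4 members passed with only the juvenile arrays in the fit and not with array weights, SLC11A1 at 0.49, SLC7A7 at 0.46, SLC31A2 at -0.70 and SLC25A21, a mitochondrial carrier of oxodicarboxylates, at -0.59. SLC39A7 at 0.31 and SLC25A46, an outer membrane protein that shapes mitochondria, at -0.62 passed with array weights and not with only the juvenile arrays. SLC39A14 stood at 8.06, 6.98 and 7.84 in juvenile RFH arrays and at 8.33, 8.33 and 8.08 in juvenile WT arrays. Its low value was juvenile RFH replicate 2, the array with cardiac muscle transcripts. No SLC gene passed in the fit of all arrays when any 1 array was left out.

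**Figure D4:**
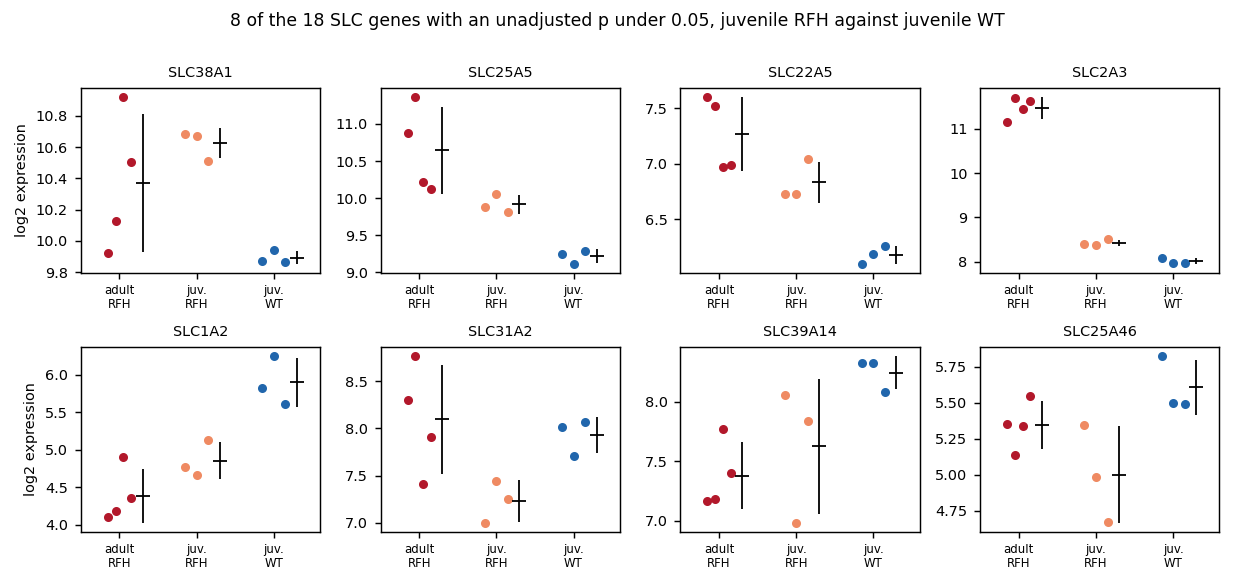
Log2 expression (vertical axis, own scale in each panel) of 8 SLC genes with an unadjusted limma p under 0.05 in juvenile RFH against juvenile WT leaflets, chosen after their values were seen. Each point is 1 array, with the group mean and SD in black, and the adult RFH arrays are shown beside them. Juvenile RFH arrays lie above juvenile WT in the 4 upper panels and below them in the 4 lower panels, and none of the 8 passed limma's adjusted p of 0.05.

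In 5 members, SLC2A3, SLC11A1, SLC7A1, SLC7A7 and SLC25A5, every adult RFH array lay above every juvenile RFH array and every juvenile RFH array above every juvenile WT array. These are 4.17% of the members, beside 4.98% of all genes with that order. In 1 member, SLC25A17, a peroxisomal carrier, the same order ran downward, at 8.56 to 9.19 in adult RFH arrays, 9.22 to 9.32 in juvenile RFH arrays and 9.53 to 9.89 in WT arrays, an order found in 1.4% of all genes. SLC25A33, SLC39A7 and SLC31A2 are examples of the opposite pattern. Their juvenile RFH arrays lay outside the range of the WT arrays, on the side away from the adult mean. No count of this pattern over the members or over all genes is given. These orders are descriptions, because both steps use the same juvenile RFH arrays.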

How the data were processed

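Gene expression in aortic valve leaflets was measured on 10 Affymetrix GeneChip Porcine Genome arrays, grouped by the labels as 4 adult RFH, 3 juvenile RFH and 3 juvenile WT. The deposited values are log2 expression per probe set, a scale read from the values. They were normalized by the authors, with R version 2.15.2 per the submitters' processing notes, and the method is not given in the sources used here. Medians of single arrays were 6.96 to 7.03. The number of arrays limits the precision, and a value cannot be traced to read depth.

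After 124 control probe sets were left out of 24123, limma 3.58.1 in R 4.3.3 was fitted to 23999 probe sets and all 10 arrays, with no covariate. Two-sided p-values were adjusted by Benjamini-Hochberg over all of them, and a gene was called under 0.05. The fit had 7 residual and 3.57 prior degrees of freedom. Fold changes were computed here from log2 differences. The fit was tested on simulated data.

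Gene symbols came from the platform annotation: 10069 probe sets had 1 symbol, 198 several and 13732 none, and 5 SLC probe sets with several entries were not used. Of the 120 gene IDs, 118 were in a RefSeq gene table, with 0 differing symbols. Classes follow the SLC family number.

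The members and all lists were chosen with earlier results of these data known. Named genes were the largest non-overlapping calls, up to 4 called members per class and direction or the one with the smallest p, the 3 brightest per class, and a list of well-known carriers. SLC2A4, SLC2A5, SLC4A2, SLC5A1, SLC25A17, SLC25A21, SLC25A36, SLC25A37, SLC25A39, SLC29A1 and SLC45A3 were, where outside that rule, chosen after their values were seen. Labels do not say that each array is a separate animal, so p-values measure the spread between these samples, which may be technical.

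Within-family pairs were compared by two-sided exact permutation over arrays. Alternatives were quantile, median and cyclic loess scaling, no dim probe sets, the fit of only the 2 groups compared, a trended robust prior, weighted arrays, a replicate block, all probe sets of a gene averaged, 1 probe set per gene, a 2-fold minimum and each array left out.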

Additional observations from a re-analysis of the deposited data

How the results depend on the processing

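No called change of a named gene reversed its sign under any alternative tried. The 17 SLC calls of adult against juvenile RFH leaflets (12 rises, 5 falls) were 9 (7 rises, 2 falls) with only the 2 groups fitted and 5 (3 rises, 2 falls) with a 2-fold minimum. Across fits without 1 array they ranged from 6 to 25, rises from 5 to 18 and falls from 1 to 9. The 0 calls of juvenile RFH against juvenile WT were 9 (6 rises, 3 falls) with only the 2 groups fitted and 7 (5 rises, 2 falls) with array weights, and stayed 0 without any 1 array. The 8 risen partner genes were 4 after quantile normalization, 2 with only the 2 groups fitted, 5 with array weights, 5 with all probe sets of a gene averaged and 3 with a 2-fold minimum, which left 0 falls. Without 1 array, 2 to 9 partner genes rose. Between juveniles, 3 partner genes rose with only the 2 groups fitted and 2 with array weights. A 2-fold minimum can only lower the number of calls. The cause of the other shifts was not tested.

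Replicate numbers of the labels did not pair the arrays: same-numbered arrays had correlations of deviations between -0.156 and 0.185. With the replicate block 21 SLC genes were called, 16 rises and 5 falls, 17.5% beside 18.2% of all genes. Only adult RFH has a replicate 4, so the block in effect left that array out of the adult comparison. Changes were the same as without adult RFH replicate 4, for example 1.66 for SLC11A1 and 3.00 for SLC2A3. Of the 120 genes, 49 were dimmer than the median of all probe sets.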

Other observations

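Some SLC genes outside the called set showed patterns that a summary by brightest probe set leaves out. SLC35F6 and SLC25A38 were called only by a dimmer probe set in adult against juvenile RFH leaflets. The dimmer SLC35F6 probe set stood at 7.53, 7.71, 7.61 and 7.63 in adult RFH arrays and at 7.24, 7.12 and 6.996 in juvenile RFH arrays, a rise of 0.50 (limma adjusted p = 0.00445), while the brightest one had a change of 0.18. SLC25A38, a mitochondrial carrier that supplies glycine for heme synthesis, stood at 6.34, 6.23, 6.17 and 6.45 in adult RFH arrays and at 6.60, 6.63 and 6.76 in juvenile RFH arrays on its dimmer probe set. That is a fall of 0.36 (limma adjusted p = 0.0354), beside a change of -0.22 on the brightest one.

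Next to SLC25A38, 2 mitochondrial carriers chosen after their values were seen went in opposite directions in the juveniles, and neither passed. SLC25A37, mitoferrin, which brings iron into mitochondria of red cell precursors, stood at 8.84, 8.56 and 8.94 in juvenile RFH arrays and at 9.28, 9.07 and 9.23 in juvenile WT arrays, a difference of -0.41 (limma adjusted p = 0.262). SLC25A39, a glutathione carrier of mitochondria, stood at 8.31, 8.55 and 8.27 in juvenile RFH arrays and at 7.90, 7.76 and 8.11 in juvenile WT arrays, a difference of 0.46 (limma adjusted p = 0.309). Erythroid markers, 3 of 5 measured, had list means of 7.56 to 8.48 in juvenile RFH arrays and 6.83 to 7.34 in juvenile WT arrays. Differences were 1.65 for AHSP, 1.61 for ALAS2 and -0.22 for HBB, none of which passed. The part of these markers in the carrier values was not tested.

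SLC27A6, a fatty acid transport protein, split the adult arrays. It stood at 9.36, 9.11, 8.11 and 7.54 in adult RFH arrays and at 7.60, 8.11 and 8.03 in juvenile RFH arrays, with a change of 0.62 ± 0.37 that did not pass (limma adjusted p = 0.291). The scaffold gene SLC9A3R2 stood at 9.68, 10.83, 9.20 and 10.34 in adult RFH arrays and at 8.96, 9.42 and 9.29 in juvenile RFH arrays, a change of 0.79 ± 0.32 (limma adjusted p = 0.123). SLC25A48 stood at 6.27, 7.48, 6.37 and 6.17 in adult RFH arrays and at 5.78, 5.71 and 5.80 in juvenile RFH arrays, a change of 0.81 ± 0.26 (limma adjusted p = 0.0568). Without adult replicate 2, its highest array, the change was 0.50 and passed (limma adjusted p = 0.00522).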
